A study of Homo sapiens with 8 samples.

Results

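The guides described here are 716 of the 46829 guide RNAs of a Cas13d dropout screen, those directed at transcripts of SR proteins, SON and other SR-related factors, hnRNPs and RBM proteins. They were chosen by gene symbol alone, with no measured value in the rule, though earlier results of these data were known. The symbols were of the forms SRSF, SRRM, TRA2, HNRNP and RBM, together with SON, SRRT, ACIN1, PNN and RNPS1. Genes that the deposited table types as non-essential controls were left out. This gave 98 splice junctions in 21 genes, out of 6735 junctions in 1250 genes. ACIN1 matched by symbol but was a control gene with 5 guides and was left out. Its Day 21 means were 0.35 and −0.40.

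The screen was run in A375, an established human melanoma line. All 8 libraries came from a single clonal line carrying RfxCas13d, a nuclease that a guide RNA directs to cut RNA, under a doxycycline-inducible TetO promoter, with the guides delivered as a lentiviral pool. The Day 0 group (2 replicates) was untreated, and the Day 7, Day 14 and Day 21 groups (2 replicates each) received doxycycline at 1 ug/ml. Guide abundance was read by PCR and sequencing of the guide cassette from genomic DNA, so a guide became rarer where cells carrying it grew or survived less well than the rest of the pool. The value for each guide, day and replicate was the authors' deposited log2 fold change against the Day 0 library of the same replicate, called the LFC here. Each step of 1 downward is a 2-fold lower value. How the libraries were scaled is not given in the sources used here, so what an LFC of 0 stands for is known only relative to other guides, such as the non-targeting guides, whose medians lay near 0. Whether the replicates were separate cultures is not given in the sources used here, so p-values measure only the spread between these libraries.

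SR proteins carry a domain rich in arginine and serine, bind enhancer sequences in exons and recruit the spliceosome to nearby splice sites. The hnRNPs coat nascent transcripts and often act against SR proteins by masking splice sites or looping out exons. SON and SRRM2 are large scaffold proteins of nuclear speckles, the bodies in which splicing factors are stored, and the RBM proteins of this set contact spliceosome parts or regulate the use of alternative exons. Many of these genes are known to be needed by dividing cells, and several regulate the splicing of their own transcripts.

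Each guide crossed an exon-exon junction, and 74 of the 98 junctions had 8 guides, the most that any junction had. Guides of a junction share their target and are not replicates, so LFCs were averaged over guides to a gene or junction mean in each library, and means were tested over libraries. Junction coordinates are given as the deposited table lists them, on hg38, the build named in the submitters' processing notes. Every member junction lay inside the RefSeq span (GRCh38.p14) of the gene with the same symbol. Guides are named by junction and number, and no guide sequence is printed.

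Read depth was not stated. Once a constant of its library was removed, each LFC was log2 of 1 whole number over another. This gives each guide an implied number at each day, a lower bound on the number that entered the ratio. Whether anything was added to the counts before the ratio is not given in the sources used here, so an implied number of 1 need not be a counted read. For the 716 guides the median implied Day 0 number was 90.5 in replicate 1 and 120 in replicate 2. At Day 21, 50 of the guides were at an implied number of 1 in each replicate. Where that 1 was the smallest number possible, the LFC could not go lower and its size was set by the Day 0 number. Because implied numbers are lower bounds, this was not known for any single guide.

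As a set, the splicing factor guides were depleted. Their median LFC was −0.05 in replicate 1 and −0.29 in replicate 2 at Day 7, −0.53 and −0.56 at Day 14, and −0.85 and −0.83 at Day 21. The medians of the 963 non-targeting guides stayed between −0.04 and 0.02 in the 6 libraries. The set's median minus that of the non-targeting guides was −0.18 ± 0.19 (SD, n = 2) at Day 7, −0.53 ± 0.039 (SD, n = 2) at Day 14 and −0.83 ± 0.015 (SD, n = 2) at Day 21. Scored genes are those that the authors' table types as essential or not essential under Cas13, not as controls. Against the 43158 other guides of scored genes, the Day 21 difference was −0.52 ± 0.030 (SD, n = 2). With 2 replicates the smallest p that an exact two-sided sign-flip test can give is 0.5, so these differences carry no p-value. An LFC of −1 or lower in both Day 21 replicates was seen for 230 of the 716 guides (32.1%), against 17.1% of all guides, 17.6% of the other guides of scored genes, 7.23% of the guides on control genes and 3.74% of the non-targeting guides.

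Depletion reached the threshold of limma's test (Benjamini-Hochberg adjusted p under 0.05) in 12 of the 21 genes (57.1%) at Day 21, all lower, against a background of 20.8% of all 1223 genes tested and 28.2% of the 829 scored genes tested. Among control genes 5.08% were called lower. The 12 were SON, SRSF3, SRSF7, HNRNPL, HNRNPU, HNRNPH1, SRSF11, HNRNPK, RBM17, RBM25, SRRM2 and RBM39. The same 12 genes were called lower at Day 14, where 22.1% of all genes and 29.4% of scored genes were called. At Day 7, where 3.92% of all genes and 5.43% of scored genes were called, the calls were SRSF3 and SRSF7 (9.52% of the 21). The median of the 21 gene means at Day 21 was −0.96, compared with −0.28 over all genes tested and −0.43 over the scored genes. Gene means below 0 in both Day 21 replicates were found for 20 of the 21 genes, against 61.3% of all genes, and 10 of them were below −1 in both. The count of 12 depended on the summary: it was 4 (SRSF3, SRSF7, HNRNPU and HNRNPK) with every library centred on the median of all guides, where 5.15% of all genes were called, and 1 (SRSF3) with the median over guides in place of the mean, where 2.04% were. A fit of all days together called 15 of the 21 at Day 21 (41.9% of all genes) and 14 at Day 14 (33.5%). The 15 were the 12 above with HNRNPM, SRRT and TRA2B. The same fit with the replicate number as a block called 19 at Day 21 (51.1% of all genes) and 20 at Day 14 (40.5%). Both fits count the days of a replicate as separate samples, although these share the same Day 0 library. The block also takes the difference between replicates out of the spread, so p-values with the block do not measure that difference. With 2 libraries a day, limma takes most of its estimate of the spread from all features, with a weight (its prior degrees of freedom) that 1 residual degree of freedom estimates poorly. Limiting that weight to 4, called the limited prior and chosen after seeing the data, left no gene called at Day 7, where 7 of the 21 had an unadjusted p under 0.05. For genes at Day 14 and Day 21 the estimated weights, 3.16 and 2.42, were already below 4, so the limit could not change those calls (21.4% of all genes at Day 21, in either direction) and does not test them.

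Among the SR proteins, 3 of 5 were called lower, with SRSF3 and SRSF7 the lowest. SRSF3, the smallest SR protein, also acts in mRNA export, and was targeted by 16 guides at 2 junctions. Its gene mean was −0.73 and −1.02 in the Day 7 replicates, −4.22 and −4.53 at Day 14, and −4.46 and −4.16 at Day 21. The Day 14 and Day 21 values lay together and far below those of Day 7, with no overlap between Day 7 and either later day. The Day 21 mean of −4.31 (SD 0.21, n = 2) had a limma adjusted p of 0.0107, and SRSF3 was the one gene of the 21 whose call held with the median over guides. It ranked 10 of the 1223 genes, counted from the lowest.

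The depletion of SRSF3 ran through nearly all of its guides, since 15 of 16 were called lower at Day 21. At the junction chr6:36596968-36598848, the 8 guides averaged −5.23 and −4.59 and all 8 were called. At chr6:36601794-36601961 the averages were −3.70 and −3.73, with 7 of 8 called. The lowest SRSF3 guide, guide 2 of the second junction, had LFCs of −6.36 and −6.82, with implied numbers of 86 and 103 at Day 0 and of 1 in both Day 21 libraries. The single uncalled guide, guide 6 of the same junction, stood at −0.68 and 0.055. Guides to the same junction of SRSF3 thus ranged from an implied number of 1 to LFCs around 0.

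SRSF7, a close relative of SRSF3 that also has a zinc knuckle, had gene means of −0.75 and −1.87 at Day 7, −2.93 and −3.17 at Day 14, and −3.60 and −3.27 at Day 21 over 16 guides. Both Day 7 replicates were above all later values, and replicate 2 was the lower at Day 7. The Day 21 mean was −3.44 (SD 0.23, n = 2; limma adjusted p = 0.0107). Of its guides 11 were called lower. The junction chr2:38750194-38751228 averaged −3.86 and −4.10, and chr2:38749705-38750013 averaged −3.35 and −2.45. Guide 5 of the latter was the lowest SRSF7 guide at −6.95 and −7.50, and it already stood at −2.04 and −6.06 at Day 7. Guide 5 of the former was the highest at 0.11 and 0.47.

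SRSF11, a member of the SR family with a single RNA recognition motif, was called lower from Day 14. Its gene means were 0.056 and −0.52 at Day 7, −1.21 and −1.48 at Day 14, and −1.60 and −1.80 at Day 21 over 24 guides. The later days were below Day 7 in each replicate, and all Day 21 values were below all Day 14 values. Averaged over replicates it reached −1.70 at Day 21 (SD 0.14, n = 2), with a limma adjusted p of 0.0128. Most of this depletion was at the junction chr1:70234788-70235500, at −3.26 and −3.69, while chr1:70239520-70244683 stood at −0.82 and −1.02. TRA2B, a splicing activator that binds purine-rich exonic enhancers, had Day 21 means of −0.99 and −0.28 and was not called (limma adjusted p = 0.162). Its limma adjusted p was 0.0424 in the all-day fit and 0.0135 in that fit with the replicate block. SRSF10, a regulator whose activity depends on its phosphorylation, had means of 0.089 and −0.88, on opposite sides of 0 (limma adjusted p = 0.424). The all-day fit with the replicate block called SRSF10 with a limma adjusted p of 0.0395, but that fit leaves the difference between replicates out of the spread.

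Of the SR-related factors, SON and SRRM2 were called lower and SRRT and RNPS1 were not. SON had the lowest gene mean of the 21 and ranked 6 of 1223 genes. Its 8 guides all lay on the junction chr21:33543169-33546212, near the start of the gene. The means were −0.40 and −1.42 at Day 7, −3.68 and −3.61 at Day 14, and −4.18 and −5.44 at Day 21. Each Day 14 and Day 21 value was below both Day 7 values, and the Day 21 replicates differed from each other by more than those of SRSF3 or SRSF7. The Day 21 mean was −4.81 (SD 0.89, n = 2; limma adjusted p = 0.0115), with an adjusted p of 0.0511 after centring on all guides and 0.106 with the median over guides.

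All 8 SON guides were at −1 or lower in both Day 21 replicates, and 7 of them were called. Guide 2 was the lowest, at −7.20 and −6.89, with implied numbers of 154 and 108 at Day 0 and of 1 in both Day 21 libraries. Guide 8 was the highest, at −1.20 and −1.43. SON was the only one of the 21 genes with every guide at or below −1 in both replicates. Because SON had a single junction, the values cannot tell the junction from the gene.

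SRRM2 had gene means of 0.047 and −0.19 at Day 7, −0.80 and −0.72 at Day 14, and −1.04 and −0.88 at Day 21 over 36 guides. The Day 21 mean of −0.96 (SD 0.11, n = 2) was called (limma adjusted p = 0.0307), but only 3 single guides were. SRRT, known as ARS2 and a partner of the nuclear cap-binding complex, had Day 21 means of −0.72 and −0.53 over 63 guides (limma adjusted p = 0.0728). For SRRT the limma adjusted p was 0.00642 in the all-day fit and 0.00473 in that fit with the replicate block, and 10 of its guides were called. RNPS1, a protein bound to the periphery of the exon junction complex, had the highest mean of the 21 genes, −0.075 and −0.064 over 8 guides (limma adjusted p = 0.770). A single RNPS1 guide, guide 8, was called lower at −4.63 and −2.81, and its Day 14 LFCs were −1.31 and −1.25.

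In the hnRNP family 4 of 8 genes were called lower at Day 21. HNRNPL, which binds CA repeats, had gene means of −0.29 and −0.63 at Day 7, −1.21 and −1.85 at Day 14, and −2.03 and −2.64 at Day 21 over 40 guides. Values were lower at each later day in both replicates, and replicate 2 was the lower at every day. HNRNPL averaged −2.33 at Day 21 (SD 0.44, n = 2; limma adjusted p = 0.0140). HNRNPU, an abundant nuclear matrix and chromatin-associated RNA-binding protein, had Day 21 means of −2.21 and −2.05 over 57 guides, a mean of −2.13 (SD 0.12, n = 2; limma adjusted p = 0.0107). HNRNPU carried the lowest GeCKO gene score of the 21 genes in the authors' deposited table, −1.67.

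HNRNPH1, which binds runs of G, had gene means of −0.26 and −0.61 at Day 7, −1.62 and −1.55 at Day 14, and −1.78 and −2.15 at Day 21 over 51 guides. All later values were below both Day 7 values. HNRNPH1 averaged −1.97 at Day 21 (SD 0.27, n = 2; limma adjusted p = 0.0128). HNRNPK, a KH-domain protein that binds C-rich RNA, had Day 21 means of −1.63 and −1.74 over 76 guides, the most of any gene in the set, and a mean of −1.69 (SD 0.076, n = 2; limma adjusted p = 0.0126). Its Day 14 mean was −1.73 (SD 0.37, n = 2), so the 2 later days overlapped.

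The other hnRNP genes were not called when Day 21 was fitted alone. HNRNPC, which binds U-rich tracts, had Day 21 means of −0.20 and −1.26, HNRNPDL had −0.11 and −1.06, and HNRNPF, a relative of HNRNPH1, had −0.17 and −0.88. These 3 genes had 8 guides on 1 junction each, and in each of them replicate 2 was lower than replicate 1. HNRNPM had Day 21 means of −0.49 and −0.72 over 58 guides (limma adjusted p = 0.0804). The limma adjusted p-values of HNRNPC, HNRNPDL and HNRNPF were 0.207, 0.254 and 0.219. In the all-day fit with the replicate block these 3 genes and HNRNPM were called lower, with limma adjusted p-values of 0.00395, 0.0177, 0.0189 and 0.00285. That fit counts the days of a replicate as separate samples and leaves the difference between replicates out of the spread. Without the block the all-day fit, which also counts the days as separate samples, called HNRNPM (limma adjusted p = 0.00901). It did not call HNRNPC, HNRNPDL or HNRNPF (limma adjusted p = 0.132, 0.119 and 0.105). A p above the threshold at 2 replicates does not show that these genes were without depletion.

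Of the RBM genes 3 of 4 were called lower at Day 21. RBM17, a splicing factor that contacts the proteins recognising the 3′ splice site, had gene means of −0.063 and −0.17 at Day 7, −1.06 and −1.13 at Day 14, and −1.31 and −1.36 at Day 21 over 46 guides. The replicates lay close together and the days did not overlap. Its Day 21 mean was −1.34 (SD 0.031, n = 2; limma adjusted p = 0.0162). RBM25, which associates with the splicing machinery at the 5′ splice site, followed the same order with Day 21 means of −1.21 and −1.07 (limma adjusted p = 0.0216). RBM39, a factor related to U2AF and the target of the aryl sulfonamide degraders, had Day 21 means of −0.85 and −0.83 over 59 guides (limma adjusted p = 0.0375). RBM18, an RNA-binding protein, had means of −0.18 and −0.41 and was not called (limma adjusted p = 0.278).

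Ordered by Day 21 mean, most neighbouring genes could not be separated. Of the 20 neighbouring pairs, 13 had overlapping replicate ranges. SON and SRSF3 overlapped, as did HNRNPL with HNRNPU, HNRNPU with HNRNPH1, HNRNPH1 with SRSF11, and SRSF11 with HNRNPK. SRSF3 lay below SRSF7, and SRSF7 below HNRNPL, without overlap. The authors' type did not follow the calls gene by gene: 10 of the 18 genes typed as essential under Cas13 were called lower, and of the 3 typed as not essential, HNRNPH1 and RBM39 were called lower and HNRNPC was not. The criterion behind the type is not given in the sources used here. Across the 21 genes, the Day 21 mean and the authors' deposited GeCKO gene score had a Pearson r of 0.52 and a Spearman rho of 0.69, and r was 0.68 without the 2 genes whose scores were farthest from the median. These are descriptions over genes, which are not independent replicates and share the same libraries. RBM39 had a low score, −1.57, beside a Day 21 mean of −0.84.

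The change between Day 7 and Day 21 was tested within each replicate, where the Day 0 library cancels. The 12 genes called at Day 21 were also the 12 called lower at Day 21 than at Day 7, where 23.5% of all genes were called. The largest differences were those of SON, −3.90 (SE 0.22, limma adjusted p = 7.7e-07), and SRSF3, −3.44 (SE 0.23, limma adjusted p = 2.4e-06). SRSF7, which had the lowest Day 7 mean of the set at −1.31, had a difference of −2.13 (SE 0.30, limma adjusted p = 0.000264). The smallest called difference was that of RBM39, −0.68 (SE 0.23, limma adjusted p = 0.0469). With each library centred on the median of all guides 7 of these 12 were called (9.81% of all genes), and with the median over guides 2 (3.76%). The limited prior left 10 called, where 171 of all 1223 genes were called.

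At the level of single guides, 40 of the 716 (5.59%) were called lower at Day 7, 143 (20.0%) at Day 14 and 175 (24.4%) at Day 21, against 2.10%, 7.96% and 11.1% of all guides. Among guides of scored genes the Day 21 share was 11.7%, and among non-targeting guides it was 1.04%. All 40 guides lower at Day 7 were also lower at Day 21, and 136 of the 143 at Day 14 were. A fit of all days together called 178 at Day 21 (12.3% of all guides) and 0 at Day 7, where 40 had an unadjusted p under 0.05. With the replicate block added to that fit the calls were 270 at Day 21, of which 253 were lower and 17 higher (23.4% of all guides), and 2 at Day 7 (0.194%). Guide calls rested on the shared spread. With the limited prior, 27 guides were called at Day 21, all lower, against 1.81% of all guides. The limited prior left 38 called at Day 14 (1.77% of all guides) and 0 at Day 7, where 87 had an unadjusted p under 0.05. The LFCs of the 2 replicates had a Pearson r of 0.64 over the 716 guides at Day 21, given as a description, compared with 0.034 over the non-targeting guides. The gene means of the 21 genes had an r of 0.92 between replicates.

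Within each called gene the guides spanned a wide range. In HNRNPL the lowest guide, guide 3 of chr19:38844104-38845649, had Day 21 LFCs of −7.00 and −6.96, and the highest, guide 1 of chr19:38845735-38845852, had 2.89 and 0.087. In HNRNPU the lowest was guide 4 of chr1:244855044-244855423 at −6.29 and −6.83. HNRNPK had both its extremes on the junction chr9:83972972-83973285, with guide 7 at −6.16 and −7.24 and guide 4 at 1.26 and 1.90. Guides for one HNRNPK junction thus lay on both sides of 0 in both replicates. The lowest guide of SRSF11, guide 2 of chr1:70234788-70235500, stood at −6.74 and −7.20, and that of RBM39, guide 7 of chr20:35707201-35709223, at −7.17 and −7.05. SRRM2 also had both extremes on 1 junction, chr16:2757579-2757780, with guide 5 at −6.58 and −4.06 and guide 1 at 0.97 and 1.03. Even in the uncalled RBM18 the lowest guide, guide 1 of chr9:122261508-122264714, was called lower at −4.61 and −5.10. In SRSF10 no guide was called, and its lowest, guide 6 of chr1:23978817-23980190, was at −0.44 and −4.58, low in replicate 2 alone.

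Only 2 guides of the set were called higher at Day 21, 0.279% of the 716 against 0.218% of all guides, and neither was called with the limited prior. Guide 7 at the RBM17 junction chr10:6115311-6115452 had LFCs of 0.27 and 1.61 at Day 7, 1.18 and 2.48 at Day 14, and 1.65 and 4.18 at Day 21. Guide 7 at the TRA2B junction chr3:185922126-185923795 had LFCs of 0.093 and 1.20 at Day 7, 1.31 and 2.59 at Day 14, and 1.83 and 3.52 at Day 21. In both guides the LFC was higher at each later day and was higher in replicate 2 than in replicate 1. The other 7 guides of the RBM17 junction averaged −1.02 and −0.56, and the other 7 of the TRA2B junction −1.89 and −0.84.

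Depletion was uneven along single genes. Of the 93 member junctions with at least 3 guides, 53 (57.0%) were called lower at Day 21, against 25.3% of all junctions tested and 9.11% of those in control genes, and none was called higher. With the limited prior, 36 were called (14.9% of all junctions), among them 2 in HNRNPM, 1 in SRRT and 1 in RBM25 but none in TRA2B, RBM18 or SRRM2. In 8 of the 12 called genes at least 1 tested junction was not called, while 4 of the 9 uncalled genes had a junction called lower: HNRNPM with 2, SRRT with 2, TRA2B with 1 and RBM18 with 1. The matching shares over all genes were not counted, so these counts do not set the members apart from other genes. The distance between the lowest and the highest junction mean of a gene had a median of 2.12 over the 16 genes with more than 1 tested junction, compared with 1.51 over 712 scored genes. It ran from 0.70 in SRSF10 to 5.96 in HNRNPH1. The 16 genes and the 712 were not matched for junctions per gene or for depth of depletion, on which this distance can depend.

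Each junction was then tested against the guides on the other junctions of its gene, a difference in which the library constants cancel. Of 88 junctions, 35 (39.8%) were called unlike the rest of their gene, against 21.9% of all junctions tested and 21.4% of those in control genes. Of the 35, 18 were lower than the rest (12.0% of all junctions tested were) and 17 were higher (9.92% were). They lay in 12 of the 16 genes, and 11 of those genes had junctions called in both directions. The calls within a gene are not independent, since 1 low junction places the others above the rest. In SRSF11, for instance, differences of −2.66, 1.20 and 1.17 were all called. The share of all genes with calls in both directions was not counted. In SRSF3 and SRSF7, which have 2 junctions each, the 2 calls are the same difference read from either side, and they were lost with the limited prior. With the median over guides 20 were called (11.5% of all junctions). With the limited prior, 8 were called (4.96% of all junctions): the lowest junctions of HNRNPH1, HNRNPL, HNRNPU, RBM39, SRRT and SRSF11 and the highest of HNRNPH1 and HNRNPL. The test takes the guides as given: it compares a difference with a spread between libraries shared over junctions. It does not measure how other guides for the same junction would have behaved. The estimated weight of the shared spread was 36.5, so standard errors ran only from 0.360 to 0.387 and a junction's own replicate agreement counted for little. For the junction means tested before, the Day 21 weight was infinite, so a junction's own replicate spread did not enter its p-value.

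HNRNPL held a wide contrast between junctions with the same number of guides. The junction chr19:38844104-38845649 averaged −4.40 and −5.05 with 7 of 8 guides called lower, and its mean minus that of the rest of the gene was −2.99 (limma adjusted p = 4.1e-08, and 0.0319 with the limited prior). The junction chr19:38840376-38840487, nearer the 3′ end of this minus-strand gene, averaged 0.29 and −0.06 with no guide called, and was 3.06 above the rest (limma adjusted p = 2.6e-08, and 0.0319 with the limited prior). All other tested HNRNPL junctions were called lower, between −1.79 and −3.13. The gene mean of −2.33 was thus an average over 4 junctions called lower and 1 that was not. The authors' table gives all 5 the category common.

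A similar contrast was found in HNRNPU, HNRNPK and SRSF11. In HNRNPU all 7 tested junctions were called lower, and chr1:244855044-244855423, the last in transcript order, was the lowest at −4.73 and −4.43 (limma adjusted p = 1.1e-07 against the rest, and 0.0321 with the limited prior). The highest, chr1:244856856-244857597, stood at −1.24 and −0.64, and a junction of HNRNPU with 2 guides, too few to be tested, stood at 0.78 and 0.61. In HNRNPK 7 of 10 junctions were called lower. Its lowest, chr9:83972972-83973285, averaged −2.91 and −3.28, and its highest, chr9:83977051-83977688, averaged 0.038 and −0.094 (limma adjusted p = 0.000213 against the rest, but 0.0518 with the limited prior). Of the 10 junctions of HNRNPK, 3 were called lower and 3 higher than the rest, and none of these calls held with the limited prior. In SRSF11 the junction chr1:70234788-70235500, described above, differed from the rest of the gene by −2.66 (limma adjusted p = 4.9e-07, and 0.0356 with the limited prior).

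SRRT held a strongly depleted junction although its gene mean was not called. The junction chr7:100887200-100887319 averaged −3.16 and −2.69 with 6 of 8 guides called lower, and differed from the rest by −2.63 (limma adjusted p = 5.7e-07, and 0.0356 with the limited prior). The junction just upstream, chr7:100886968-100887046, averaged 0.42 and 0.92 and was called higher than the rest (limma adjusted p = 0.00214, but 0.0818 with the limited prior). The other SRRT junction called lower than 0, chr7:100884239-100884367, stood at −1.03 and −0.92 and was not called with the limited prior, and chr7:100885370-100885700, with 2 guides and no test, stood at −2.30 and −1.82. In HNRNPM, also uncalled as a gene, the neighbouring junctions chr19:8466388-8467534 (−1.74 and −1.42) and chr19:8467584-8468773 (−1.44 and −2.48) were called lower than 0 and lower than the rest, the latter not with the limited prior.

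In the RBM genes, 4 of 6 RBM17 junctions and 6 of 7 RBM25 junctions were called lower, with their lowest at chr10:6101387-6104930 (−2.35 and −2.82) and chr14:73077536-73083493 (−2.35 and −2.05). With the limited prior 3 RBM17 junctions and 1 RBM25 junction were called lower. The RBM39 junction chr20:35707201-35709223 averaged −2.71 and −2.93 with 4 of 8 guides called lower (limma adjusted p = 5.9e-06 against the rest, and 0.0400 with the limited prior). The neighbour downstream, chr20:35705330-35707119, averaged −0.082 and −0.21, and chr20:35716805-35721739 averaged 0.35 and 0.26. Of the 8 RBM39 junctions 3 were called lower than 0 (2 with the limited prior), and 2 were called lower and 2 higher than the rest of the gene (1 and 0 with the limited prior). In SRRM2 4 of 5 junctions were called lower than 0 (0 with the limited prior) and none was called unlike the rest.

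HNRNPH1 had the widest range, from chr5:179616958-179617050 at −5.15 and −5.99 to chr5:179616218-179617020 at 0.071 and 0.72. The first was called lower than the rest of the gene (limma adjusted p = 8.0e-11, and 0.0319 with the limited prior) with all 5 of its guides called lower. The second was called 2.80 above the rest (limma adjusted p = 3.4e-07, and 0.0400 with the limited prior) with none of its 8 guides called. The lowest of all the named guides was guide 8 of the first junction, at −7.33 and −7.89, whose implied numbers were 168 and 216 at Day 0 and 1 in both Day 21 libraries. The table gives the first junction the category partial_unique and the second fully_unique, names whose definitions are not given in the sources used here.

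The second junction covers the stretch from 179616868 to 179616958, which lies between chr5:179616218-179616868 and chr5:179616958-179617050. At its higher end it uses a coordinate of its own, 179617020, not 179617050. It shares the coordinate 179616218 with the shorter chr5:179616218-179616868, which averaged −2.46 and −2.99 with 6 of 8 guides called lower. The longer junction was 3.12 above the shorter (SE 0.49, limma adjusted p = 1.5e-06, but 0.105 with the limited prior), the difference being 2.53 in replicate 1 and 3.71 in replicate 2. At Day 14 the longer junction averaged −0.18 and 0.36 and the shorter −2.12 and −2.35. The 2 junctions that border the stretch were called lower than 0, and the junction that covers it was not called.

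This was 1 of 3 pairs of member junctions that share a splice site, out of 62 such pairs in the table, of which 4 (6.45%) were called. The pair test was added after values had been seen, and with the median over guides the HNRNPH1 pair had an adjusted p of 0.0576. The weight of the shared spread was infinite for pairs at Day 21, so all 3 pairs had the same SE whatever their replicate spread. A second HNRNPH1 pair shared 179623164, with the other ends 41 bases apart. Its longer junction stood at −0.14 and −0.74 and the shorter at −1.33 and −1.61, a difference of 1.03 (SE 0.49, limma adjusted p = 0.204). In RBM39 a pair shared 35713018, with the other ends 18 bases apart. The longer stood at 0.21 and 0.22 and the shorter at −0.80 and −1.63, a difference of 1.43 (SE 0.49, limma adjusted p = 0.0580). In all 3 pairs the longer junction was typed fully_unique, the shorter partial_unique, and the longer was higher in both replicates.

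By category, 44 of 72 tested member junctions of category common were called lower at Day 21, 8 of 13 partial_unique, 0 of 3 fully_unique and 1 of 5 single_unique. Over the whole table the shares called lower were 29.7%, 21.2%, 19.5% and 24.9% in that order. The 3 fully_unique junctions were the longer members of the pairs above. All single_unique member junctions lie in RBM18. The partial_unique and fully_unique ones lie only in HNRNPH1, RBM39 and HNRNPC, the 3 genes typed as not essential, and the common ones only in the remaining genes. Category and gene thus cannot be told apart, except for fully_unique against partial_unique within HNRNPH1 and RBM39.

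Of a list of 41 other regulators of splicing, 11 were in the table and tested. At Day 21, 7 of these 11 were called lower and none higher, where 20.8% of all genes were called lower. Their median gene mean was −1.04, beside −0.28 over all genes. The lowest were EIF4A3, a core exon junction complex helicase, at −2.42 and −2.35, and U2AF2, which binds the polypyrimidine tract, at −2.14 and −2.15. TNPO3, the nuclear import receptor of SR proteins, was called lower at −1.15 and −0.94. PUF60, PCBP2 and SF1 were also called lower, while SYNCRIP, RALY, SUGP1 and ELAVL1 were not called.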

How the data were processed

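The authors deposited 1 table of log2 fold changes per guide, day and replicate against Day 0, with a GeCKO gene score per gene and a junction category. The submitters' processing notes name cutadapt 3.5, Bowtie 1.1.2 and hg38. The read counter, scaling and pseudocount are not given in the sources used here. All values equalled a library constant plus log2 of a whole-number ratio (tolerance 1e-08).

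Members and lists were chosen with earlier results of these data known. Guide LFCs were averaged per gene or junction (at least 3 guides), and the mean of 2 replicates was tested against 0 in limma 3.58.1 (R 4.3.3), each day alone, with Benjamini-Hochberg adjustment over all features and a threshold of 0.05. The code was tested on simulated data, where false calls exceeded the nominal share at guide and junction level, so a limit of 4 on limma's prior degrees of freedom was added as an alternative. Full values were given for genes called at Day 21 and the 3 lowest and highest means, and for their lowest and highest junctions and guides. Alternatives were centring, the median over guides, robust moderation, 1 fit over all days, an implied Day 0 minimum of 50 and a replicate block. Replicate numbers come from the labels, and the deviations of equally numbered libraries correlated across days at 0.41 to 0.65. One gene of the list of other regulators is not reported here by name.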

Additional observations from a re-analysis of the deposited data

Results flagged for a closer look

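The results flagged were gene means whose effect differed between Day 7 and Day 21 by a test of the difference itself (limma on the difference within each replicate, adjusted p under 0.05). The difference was −3.90 for SON, −3.44 for SRSF3, −2.13 for SRSF7, −1.87 for HNRNPL and −1.50 for HNRNPU. It was −1.53 for HNRNPH1, −1.47 for SRSF11, −1.04 for HNRNPK and −1.22 for RBM17. For RBM25 it was −0.91, for SRRM2 −0.89 and for RBM39 −0.68. All 12 were lower at Day 21 in both replicates. The groups had 2 samples each, so none was examined for a sample standing apart.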

How the results depend on the processing

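Centring on all guides moved the count of member genes called at Day 21 from 12 to 4, at Day 7 from 2 to 0 (8 at an unadjusted p under 0.05), and between Day 7 and Day 21 from 12 to 7 (added after seeing the data). The median over guides gave 1 gene at Day 21 (2.04% of all genes), 6 at Day 14 (7.28%), 4 at Day 7 (4.58%) and 2 for the change from Day 7 (3.76%). It also gave 20 junctions unlike the rest (11.5% of all junctions) and 0 of 3 junction pairs (2 at an unadjusted p under 0.05). The replicate block together with 1 fit of all days gave 19 genes at Day 21, 20 at Day 14, 270 guides at Day 21 and 2 guides at Day 7, against 15, 14, 178 and 0 in that fit without the block. At Day 7, robust moderation gave 1 gene, 1 fit of all days gave 0 genes (6 unadjusted) and 0 guides (40 unadjusted), and an implied Day 0 minimum of 50 gave 0 genes (9 unadjusted), all with limma. Limiting the prior degrees of freedom to 4 (added after the test on simulated data gave false calls above the nominal share at guide and junction level) gave 0 genes at Day 7 (7 unadjusted), 27 single guides at Day 21 with 38 for Day 14 and 0 for Day 7 (87 unadjusted), 36 junctions, 8 junctions unlike the rest, and 0 junction pairs (2 unadjusted); it could not act on genes at Day 14 and Day 21. The median difference from non-targeting guides, −0.83, was −1.31 with means over guides, −0.87 with the Day 0 minimum, −1.04 over gene means, and −0.84 to −0.81 leaving out a replicate. RBM18 turned to 0.015 and RNPS1 to 0.24 after centring, and RNPS1 to 0.059 with medians. The causes were not tested. Counts of calls have no value with 1 replicate left out, which leaves no residual degrees of freedom, and centring cancels in junction differences. Guides at an implied number of 1 may limit the depth of the lowest values.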
